A study of Rattus norvegicus with 2 samples.

Results

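The complement proteases and regulators described here are 7 genes of the rat: Masp1, Masp2, C1s, C1r, C3, Cfb and Cd55. They were chosen by symbol, with earlier results of these 2 arrays known, and each had 1 probe set with a single gene symbol, among 18166 genes with such a probe set. Expression was measured by microarray in C6, a clonal rat glioma line grown in medium with serum, in a small-molecule-treated culture labelled SMiG and in a culture of undifferentiated C6 cells, with 1 array each. The labels disagree on the treatment of the SMiG culture. Its own labels name forskolin, which activates adenylyl cyclase, rapamycin, which inhibits mTORC1, and I-BET151, which inhibits BET bromodomain proteins, whereas the treatment protocol, given alike for both samples, lists 20 µM CHIR99021, an inhibitor of GSK3, and 100 µM forskolin for 35 days. The series asks whether treated glioma cells come to resemble glia and proliferate less. Without replicate arrays, the differences below carry no error and no p-value.

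Complement is a cascade of secreted proteases that marks surfaces with fragments of C3 and can end in a lytic pore. In the classical pathway, C1q bound to its target activates the protease C1r, which activates C1s. In the lectin pathway, sugar-binding collectins and ficolins carry the related proteases of the MASP family, and in the alternative pathway factor B, encoded by Cfb, forms the C3-cleaving enzyme on C3 fragments already deposited. CD55, a membrane protein, speeds the decay of the C3-cleaving enzymes on the cell that carries it. Most complement proteins in blood come from the liver, and astrocytes, microglia and glioma lines can also make some of them.

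The members went in opposite directions. Masp1 was 6.62-fold higher in SMiG, whereas C1r was 8.40-fold lower, Cd55 at least 5.89-fold lower and C1s at least 2.25-fold lower. Masp2 lay close to the detection level on both arrays with nearly equal values, and C3 and Cfb were below it on both. A gene counts as detected where at least 1 array lies above a floor, the 95th percentile of the values of 1342 olfactory and vomeronasal receptor genes taken as silent. The floor was 4.96 in SMiG and 4.84 in C6 on the log2 scale, and 10931 genes were detected. Where the dimmer array is at or below its floor, the fold is a lower bound against that floor. The bounds depend on the floor. Against the 99th percentile of the silent genes, 5.99 in SMiG and 5.91 in C6, C1s was at least 1.10-fold lower, which no longer passes 2-fold, Cd55 at least 2.88-fold lower, C1r at least 7.01-fold lower and Masp1 at least 5.49-fold higher.

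Of the promoters of the members, those of Masp1, C1r and Cd55 are shown because these genes had the largest differences between the arrays. Each runs from 250 bases before to 50 bases after the gene start that RefSeq's GRCr8 promoter table uses, and for Masp1 and Cd55 the window lies inside the annotated span of the gene. The Masp1 promoter lies at chr11:90839472-90839771 on the plus strand, that of C1r at chr4:159098763-159099062 on the plus strand and that of Cd55 at chr13:44438052-44438351 on the minus strand. Lower case marks sequence with no match, and capitals mark matches to any of 9 short motifs, searched on both strands.
Masp1: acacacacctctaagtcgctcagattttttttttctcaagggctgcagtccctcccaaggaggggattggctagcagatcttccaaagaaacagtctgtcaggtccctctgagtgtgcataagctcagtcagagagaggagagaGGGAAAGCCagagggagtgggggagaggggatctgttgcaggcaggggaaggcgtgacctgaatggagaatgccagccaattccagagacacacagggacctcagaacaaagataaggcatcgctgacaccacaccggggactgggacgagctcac
C1r: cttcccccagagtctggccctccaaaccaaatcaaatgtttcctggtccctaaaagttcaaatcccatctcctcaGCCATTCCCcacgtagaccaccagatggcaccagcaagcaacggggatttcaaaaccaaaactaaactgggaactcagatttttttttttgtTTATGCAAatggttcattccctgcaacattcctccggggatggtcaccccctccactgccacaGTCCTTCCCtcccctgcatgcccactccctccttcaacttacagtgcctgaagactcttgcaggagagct
Cd55: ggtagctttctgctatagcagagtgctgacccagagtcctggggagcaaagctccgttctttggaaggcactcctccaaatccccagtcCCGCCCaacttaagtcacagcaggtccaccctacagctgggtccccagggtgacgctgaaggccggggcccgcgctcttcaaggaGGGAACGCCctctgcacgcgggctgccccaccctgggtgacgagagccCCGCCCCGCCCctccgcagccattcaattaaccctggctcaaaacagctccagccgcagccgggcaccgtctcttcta

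The motifs were the STAT element TTCNNNGAA, the cyclic AMP response element TGACGTCA, the NF-kappaB elements GGGANTTTC and GGGAANNNC, which can match the same site, the C/EBP element TTGCNNAA, the interferon element GAAANNGAA, the AP-1 element TGANTCA, the TATA box TATAAA and the GC box GGGCGG. Over the 33469 promoters of the table, a match was present in 8.87% for the STAT element, 1.83% for the cyclic AMP element, 1.15% for the first NF-kappaB element, 19.9% for the second, 10.6% for C/EBP, 9.71% for the interferon element, 7.33% for AP-1, 14.2% for the TATA box and 33.1% for the GC box. The Masp1 promoter held 1 match to the second NF-kappaB element, starting 106 bases before the start of the gene, and none to the other motifs, which says only that their letters are not in this window. The C1r promoter held 1 C/EBP match, starting 83 bases before the start, and 2 matches to the second NF-kappaB element, starting 175 and 20 bases before it. The Cd55 promoter held 1 match to the second NF-kappaB element, starting 76 bases before the start, and 3 GC boxes, of which the 2 nearest the start share a base. The C3 promoter, not printed because the gene was below the floor on both arrays, held 1 C/EBP match and 1 match to the second NF-kappaB element. Base composition also differed, with 63.7% G and C and 16 CG pairs for Cd55, 54.3% and 5 for Masp1 and 50.3% and 3 for C1r, against a median of 51.7% G and C over the table.

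**Figure D1:**
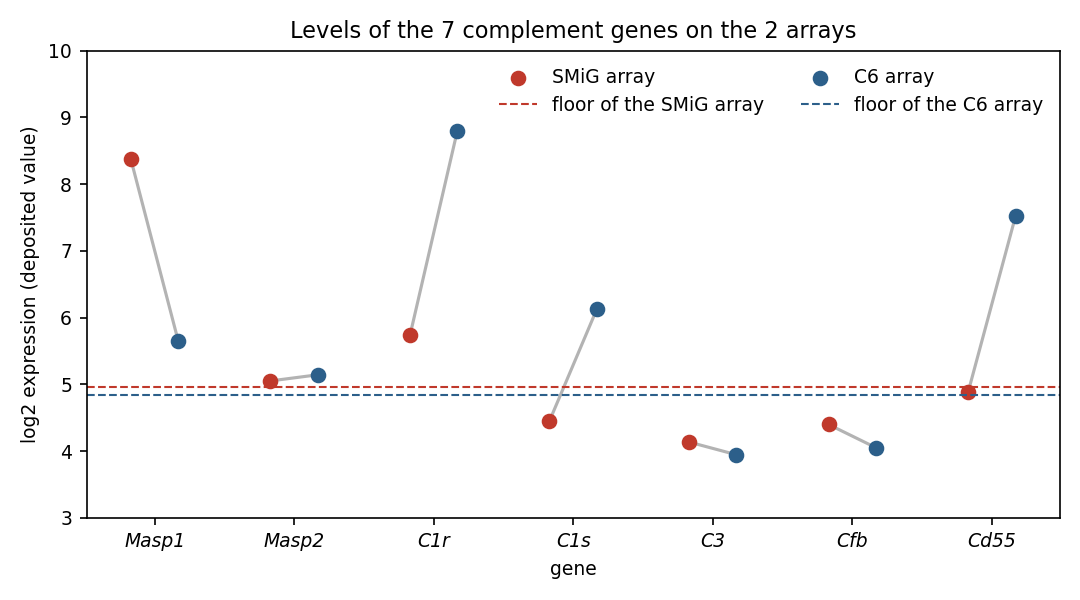
Log2 expression (vertical axis) of the 7 genes on the SMiG array (left point of each pair, red) and the C6 array (right point, blue), 1 array each, with dashed lines at the floors of 4.96 (SMiG) and 4.84 (C6). Masp1 is the only gene of the 7 far above its C6 value in SMiG. C1r, C1s and Cd55 are below theirs by more than 2-fold in measured values. The SMiG points of C1s and Cd55 lie under the SMiG floor, and C3 and Cfb lie under both lines.

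Masp1 encodes the serine protease that starts lectin pathway activation, and by alternative splicing also MASP-3, a protease that activates factor D of the alternative pathway, and a shorter protein without protease activity. The gene lies on chromosome 11 at 90839081 to 90909922 (GRCr8). Its log2 level was 8.37 in SMiG and 5.64 in C6, above the floor on both arrays. The log2 difference, SMiG minus C6 here and throughout, was 2.73, the 9th highest of the 10931 detected genes. The probe set gives 1 value for the gene and does not separate the splice forms.

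Masp2, on chromosome 5 at 164319017 to 164332686, encodes the protease that cleaves C4 and C2 in the lectin pathway. It stood at 5.05 in SMiG and 5.14 in C6, 0.090 and 0.30 above the floors of these arrays, with a difference of −0.09. The sugar-binding partners of these proteases were near the floor or below it. The collectin gene Colec11 stood at 5.49 in SMiG and 5.41 in C6 and the ficolin gene Fcna at 5.13 in SMiG and 5.05 in C6, and the other 4 lectin genes measured were below the floor on both arrays.

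C1r, which encodes the protease that C1q activates, had the largest difference of the 7. It lies on chromosome 4 at 159099013 to 159109770. Its log2 level was 5.73 in SMiG and 8.80 in C6, above the floor on both arrays. The difference of −3.07 was the 34th lowest of all detected genes. In the annotation a long non-coding RNA gene, LOC102553847 (chromosome 4, 159096493 to 159103398), overlaps the start of C1r, and the deposited values do not show whether the probe set reads any of it.

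C1s encodes the protease that C1r activates and that cleaves C4 and C2. It follows C1r on chromosome 4 at 159116549 to 159128736, with 6778 bases between the genes. It stood at 4.45 in SMiG, below the floor, and at 6.13 in C6, a measured difference of −1.68. With the SMiG value raised to its floor the difference was −1.17. C1s passed the filter through the C6 array alone, so a lower value in SMiG is partly built into its selection. The adjacent gene C1rl, encoding a protease related to C1r, was below the floor on both arrays.

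The genes of C1q, the recognition part that C1r and C1s bind, were near the floor or below it on both arrays. C1qa stood at 5.64 in SMiG and 5.38 in C6 and C1qc at 5.01 in SMiG and 5.22 in C6, while C1qb was below the floor on both arrays. In C6, C1qa was 0.54 and C1qc 0.38 above the floor. From there, falls as large as those of C1r and C1s could not be seen, so no contrast with them is drawn.

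C3, the protein on which all pathways converge, and Cfb were not detected. C3 (chromosome 9, 2174412 to 2201339) read 4.14 in SMiG and 3.95 in C6, and Cfb (chromosome 20, 3975271 to 3981138) read 4.40 in SMiG and 4.05 in C6. All 4 values lie below the floors, so no direction or fold is drawn from them. Of the other genes of the alternative pathway measured, properdin (Cfp), which stabilises its C3-cleaving enzyme, was the only one detected, at 5.55 in SMiG and 5.82 in C6.

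Cd55, on chromosome 13 at 44409574 to 44438913, was lower in SMiG. It stood at 4.88 in SMiG, just under the floor, and at 7.52 in C6. The measured difference was −2.64, or −2.56 with the SMiG value raised to its floor. It too passed the filter through C6 alone. Another membrane regulator gene, Cr1l, was lower by less. Cr1l, the rodent regulator also called Crry, stood at 7.55 in SMiG and 8.02 in C6, which differ by −0.47. Cd46 was at least 1.33-fold lower, at 4.77 in SMiG, under its floor, and 5.38 in C6. That C6 value was only 0.54 above the floor. From there a fall as large as that of Cd55 could not be seen, so no contrast with Cd46 is drawn.

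Cd55 belongs to a family of regulators whose genes are partly clustered. The genes of the C4b-binding protein, C4bpa and C4bpb, lie near it on chromosome 13, from 44627959 to 44683781, and were below the floor on both arrays. Cd46 and Cr1l are farther along the same chromosome, from 109104122 to 109189068.

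Among all detected genes, 3.19% passed 2-fold on the higher side in SMiG and 6.51% on the lower side, and the shares past 4-fold were 0.366% on the higher and 1.3% on the lower side. Of the 7 members, 1 passed 2-fold on the higher side and 3 on the lower side, and nothing is read from these shares because the members were chosen on this contrast. Across the silent receptor genes, the SD of the log2 difference was 0.32. Of these, 11 (0.820%) passed 2-fold. That spread leaves out any variation from culture to culture.

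**Figure D2:**
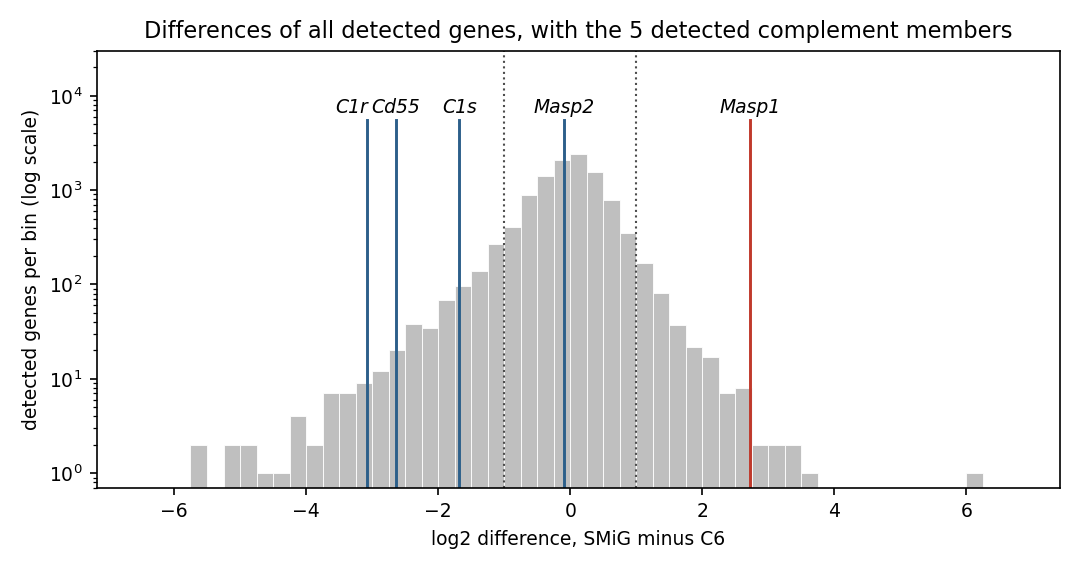
Number of detected genes (vertical axis, log scale) by log2 difference, SMiG minus C6 (horizontal axis, bins of 0.25), with vertical lines at the 5 detected members and dotted lines at 2-fold. Masp2 lies at the centre at −0.09, Masp1 near the upper end at 2.73, and C1s, Cd55 and C1r in the lower tail at measured differences of −1.68, −2.64 and −3.07, of which those of C1s and Cd55 rest on SMiG values below the floor.

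The wider complement list, written with earlier results known, had 63 genes, of which 52 had a probe set with a single symbol and 20 were detected. Of the 20, Masp1 and 1 other gene passed 2-fold on the higher side, 4 passed it on the lower side, and 14 were within 2-fold. Over all detected genes the shares were 3.19% on the higher and 6.51% on the lower side. Without the members, 1 of 15 detected genes passed 2-fold on each side (6.67%). Nothing is read from the counts with the members, which were chosen on this contrast. The median difference of the 20 was −0.23, against −0.0052 over all detected genes, and it took the opposite sign, 0.088, when all 52 were counted. All 20 were above the floor in C6 but only 15 in SMiG. The rest passed the filter through C6 alone, so lower values in SMiG are partly built into the selection. The other 32 of the 52 were below the floor on both arrays. Among them were C5, 5 of the 6 other genes of the lytic pore and 12 of 17 regulators. Over all 18166 genes, 10931 were detected. The only gene of the pore detected was C8g, which encodes a lipocalin chain, at 7.05 in SMiG and 6.80 in C6.

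Apart from the members, 2 complement genes passed 2-fold. Clu encodes clusterin, a secreted chaperone that also inhibits the lytic pore, and was 2.80-fold higher at 9.03 in SMiG and 7.54 in C6. Cd93 encodes a surface glycoprotein once proposed as a C1q receptor, and was at least 7.69-fold lower, at 4.31 in SMiG, below the floor, and 7.90 in C6. Like C1s and Cd55, Cd93 passed the filter through C6 alone. The multiligand receptor gene Lrp1 came next at 9.06 in SMiG and 9.99 in C6, which differ by −0.93. The genes of the C1q-binding proteins C1qbp and calreticulin were within 2-fold, with C1qbp at 7.91 in SMiG and 8.17 in C6 and Calr at 11.17 in SMiG and 10.95 in C6.

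**Figure D3:**
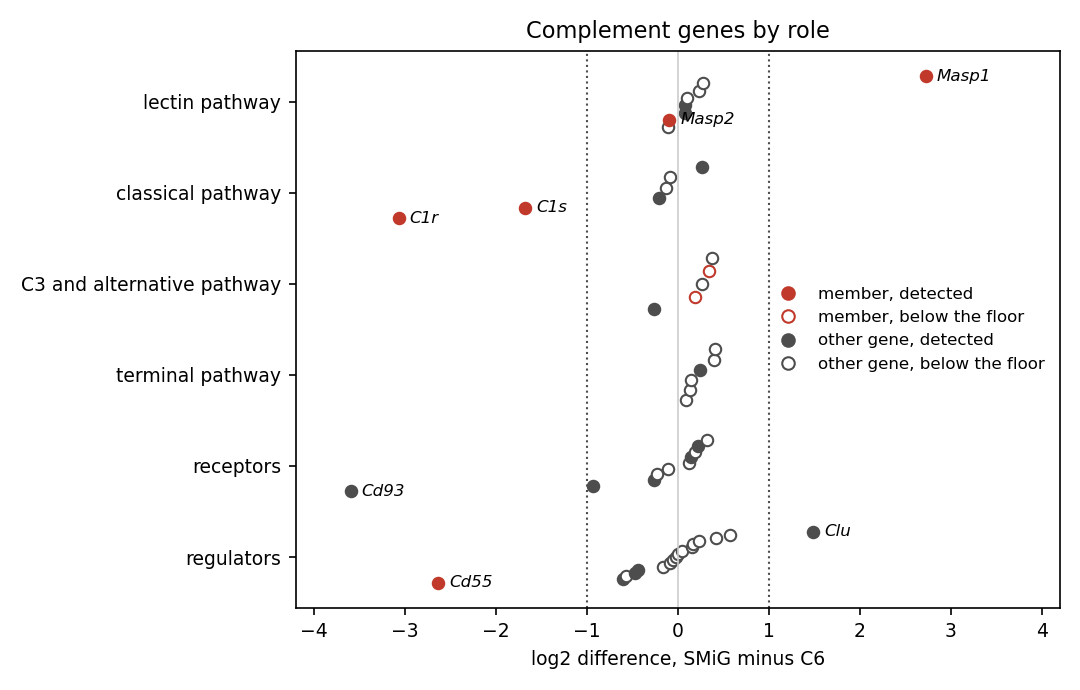
Log2 difference, SMiG minus C6 (horizontal axis), of the 52 measured complement genes, grouped by role (vertical axis), with members in red and genes below the floor on both arrays as open circles. Only Masp1 and Clu lie beyond the dotted line of 2-fold on the higher side, and C1r, C1s, Cd93 and Cd55 on the lower side. Vertical scatter within a group has no meaning.

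Genes of the signalling that controls complement transcription formed a further list of 27. It held cytokines, receptors, transcription factors and the inhibitors Nfkbia and Socs3. Of 21 detected, 17 had a positive and 4 a negative difference, with a median of 0.42, against −0.0052 over all detected genes, and 3 passed 2-fold in measured values. Stat3 and Lifr did so upward, against 3.19% of all detected genes, and Il6 downward, against 6.51%. Nothing is read from these counts or from the median, because the list was written with earlier results known. Stat3, a transcription factor of gp130 cytokines, was 2.15-fold higher at 9.65 in SMiG and 8.55 in C6. Lifr, the receptor gene of the cytokine LIF, was at least 8.51-fold higher, at 7.93 in SMiG and 4.43, below the floor, in C6. It passed the filter through SMiG alone, so a higher value in SMiG is partly built into its selection. The cytokine gene Il6 was below the floor in SMiG at 4.18, against 5.37 in C6, with a bound of only 1.33-fold, and the interleukin-1 receptor gene Il1r1 had a difference of 0.91.

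By their log2 difference over the 2 arrays, the detected genes nearest to Masp1 were Col18a1, with a gap of 0.011, and Inka2, with a gap of 0.012. Nearest to C1r were Kcnq5, with a gap of 0.017, and Sh2d1b2. For C1s and Cd55, whose SMiG values were below the floor, the measured differences nearest were those of Irak3 and Mast4 (C1s) and of Gper1 and Rgs17 (Cd55). The SMiG values of Sh2d1b2, Gper1 and Rgs17 were also below the floor, so no gap is read for pairs that hold such a value. With 1 difference per gene, this likeness is a description only.

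Markers of the labelled line and of other cell types were read on both arrays. The intermediate filament gene Vim stood at 12.74 on both arrays and Nes at 8.59 in SMiG and 8.74 in C6, while the astrocyte markers Aqp4, Slc1a2, Slc1a3 and Sox9 were below the floor on both. Gfap was at 5.48 in SMiG and 6.04 in C6, and S100b was 2.30-fold higher in SMiG. Of 11 markers of microglia and macrophages, 4 were above the floor in SMiG and 4 in C6, not the same 4, with a mean log2 level of 4.52 in SMiG and 4.74 in C6. Aif1, Ptprc, Csf1r, Cx3cr1, Tyrobp and Itgam were below the floor on both. The detected ones lay on both sides, with Cd14 at −1.44, Tmem119 at −0.81, Trem2 at −0.01, Cd68 at −0.69 and below the floor in SMiG, and P2ry12 at 0.87 and below the floor in C6. Of 4 hepatocyte markers only Ttr was detected, at 5.19 in SMiG and 4.95 in C6, and Alb was below the floor on both, as were both measured endothelial markers. Of 5 fibroblast markers, 2 were above the floor in SMiG and 3 in C6, with a mean of 5.49 in SMiG and 5.99 in C6. Col1a1 differed by −1.15, Pdgfra by −1.17 and Col1a2, below the floor in SMiG, by −0.30, while Dcn and Lum were below the floor on both. The part of these marker lists in the values of the members was not tested. In bulk RNA, fewer cells that express a gene and less of its RNA per cell cannot be told apart.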

How the data were processed

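Total RNA of 2 cultures was made into biotin-labelled sense cDNA for GeneChip WT arrays, per the labels' protocols. The authors deposited a table of log2 values with 36685 probe sets and 1 column for each array. The log base is not given in the sources used here and was read from the highest value, 13.09, which exceeds 11.09, the natural log of the largest 16-bit number. Background correction and normalization are likewise not given. Column medians were 4.86 (SMiG) and 4.84 (C6), and no further scaling was applied.

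Genes were named from the platform annotation for the 18511 probe sets with 1 symbol, and probe sets of a gene were averaged. RefSeq's GRCr8 tables, matched by gene number for 7 of 7 members, gave positions and by symbol 4 promoters, those of Masp1, C1r, C3 and Cd55. Of the silent receptor genes, 79 (5.89%) lay above a floor. The members and lists were chosen with earlier results of these data known.

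Named were the 7 members, other detected complement genes past 2-fold, up to 4 detected genes with the largest absolute difference of each role group and list, and the 2 nearest genes in difference for each detected member past 2-fold. Python 3.11.15, numpy 2.4.6, pandas 2.3.3, statsmodels 0.14.6 and matplotlib 3.10.9 were used, and the fold calls were tested on simulated data. Changes were planted there only in genes well above the floor, so the lower bounds were not tested. As alternatives served the 99th percentile as floor, no floor, values raised to the floor, centring, a lowess trend (span 0.3), quantile normalization, the brightest probe set, each probe set alone, and thresholds of 1.5-fold and 4-fold. Raising values to the stricter floor was added after seeing the data. Probe sets with several symbols or none were left out. The number of arrays limits the precision.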

Additional observations from a re-analysis of the deposited data

How the results depend on the processing

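Of the 90 values recomputed under the alternatives, 84 stayed within the spread of the silent genes, within 0.1 for the list median, or within 1.5 times for a count. Part of this was fixed in advance. Each member has 1 probe set, so the brightest probe set and each probe set alone return its difference unchanged. Moving or dropping the floor, without raising values to it, changes only whether a member is detected. The 84 is therefore no measure of robustness. The difference of C1s was −1.17 when its SMiG value was set to the floor. In an alternative chosen after seeing the data, values below the stricter floor, the 99th percentile, were raised to it. C1s then differed by −0.14 and Cd55 by −1.53, against −2.81 for C1r and 2.46 for Masp1, since the dimmer value of each lies below that floor. The median of the complement list was −0.47 over 11 genes with the stricter floor, and 0.088 over 52 genes, of the opposite sign, with no floor, which admits the genes below it (over all genes, −0.041 and 0.045). At 4-fold, of the 20 detected complement genes, 1, the member Masp1, was higher and 3 were lower. Among all detected genes the shares were 0.366% and 1.3%. Nothing is read from these counts, which include members chosen on this contrast. Masp2 fell below the stricter floor and has no value there. Values of C3 and Cfb, below the floor on both arrays, have no call to change. No paired analysis was possible because each group has 1 array.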

Other observations

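Acute phase genes, which liver and glia raise in inflammation and which often change with complement genes, had few detected members. Of 18 in the list, which was written with earlier results known, 16 had a probe set and 5 were detected. Over all 18166 genes, 10931 were detected. The median difference of the 5 was −0.31, against −0.0052 over all detected genes. Over all 16 the median was 0.032, of the opposite sign. The ferroxidase gene Cp was the only detected gene of the list past 2-fold, at 10.27 in SMiG and 6.85 in C6. Among all detected genes, 3.19% passed 2-fold on the higher side and 6.51% on the lower side. The siderophore-binding lipocalin gene Lcn2 stood at 5.44 in SMiG and 4.76, below the floor, in C6. Hp, encoding the haemoglobin-binding protein haptoglobin, stood at 4.57 in SMiG, below the floor, and 5.39 in C6. The receptor gene S1pr3 stood at 4.67 in SMiG, also below the floor, and 5.07 in C6. Hp and S1pr3 passed the filter through C6 alone and Lcn2 through SMiG alone. The directions of these differences are therefore partly built into the selection, which also enters the median.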
